A study of Mus musculus with 2 samples.

Results

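A set of 5 marker genes of the uterine glands was followed in the whole uterus of pregnant mice: Foxa2, Spink3 (the older symbol of Spink1), Prss28, Prss29 and Sox9. They were taken by gene symbol from a table of 22740 genes, and all 5 were found in it. The table holds RNA sequencing of the uterus of 2 C57BL/6 mice on day 4 of pregnancy, with 1 library per animal. The labels give 1 group, titled WT with a number, and name no treatment, allele or age, so the animals are called uterus 1 and uterus 2. Paired values below are given in that order. The data describe how strongly the gland genes were expressed and how far 2 animals differed, and no contrast between conditions exists.

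Uterine glands are tubes of epithelium that grow from the luminal lining into the stroma and secrete into the lumen the proteins that an implanting embryo needs. FOXA2 is the forkhead transcription factor that is found in the gland epithelium and not in the luminal lining of the adult mouse uterus, and loss of FOXA2 leaves the uterus without working gland secretion. SOX9 is a transcription factor of gland epithelium and of many other progenitor cells. SPINK3 is a secreted Kazal-type inhibitor of trypsin-like proteases, also made by the exocrine pancreas. PRSS28 and PRSS29 are secreted tryptase-type serine proteases known as implantation serine proteinases.

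Values are the authors' RPKM, which scale a gene's reads to the length of its transcript and to the size of the library, so levels can be compared between genes. Whole reads behind the RPKM values were recovered from the deposited numbers, with sums of 3761644 in uterus 1 and 4180080 in uterus 2. The recovered length came within 5% of an annotated transcript for 77.7% of the 16221 genes above 0 with an annotated length. The other genes hold the smallest possible reads, so these sums and the shares of genes called below are approximate. The labelled tissue bears its defining genes in both libraries. The hormone receptors Pgr and Esr1 had means of 72.0 ± 7.90 and 103 ± 5.46 RPKM (SD, n = 2). Both had their higher value in uterus 1, Pgr at 77.5 and 66.4 RPKM (exact binomial test described below, adjusted p = 8.5e-05) and Esr1 at 106.9 and 99.2 RPKM (adjusted p = 0.23). All 6 smooth muscle genes and all 10 epithelium genes of fixed marker lists were at 1 RPKM or more in both uteri.

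Of the gland genes, 4 were at 1 RPKM or more in both uteri, and Prss28 lay just under that level in both. Across the table, 58.4% of genes reached 1 RPKM in both uteri. The glands are a small part of the uterus, and in whole tissue fewer gland cells and less RNA per gland cell cannot be told apart.

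Spink3 (NM_009258, chromosome 18, 43887723 to 43896891 on mouse build NCBIM37, the mm9 assembly, minus strand) was by far the most abundant of the 5. Its levels were 46.4 and 71.8 RPKM, on 75 and 129 reads of a 422-base transcript. The mean of 59.1 ± 18.01 RPKM (SD, n = 2) placed it at rank 959, above 95.8% of all genes. Of the summed RPKM of the 5 genes, Spink3 held 84.5% in uterus 1 and 84.7% in uterus 2. As its transcript is short, its share of the genes' reads was smaller, 54.0% in both uteri, with exact (Clopper-Pearson) 95% intervals from 45.3% to 62.4% and from 47.4% to 60.4%. Intervals here and below express counting error alone and leave out variation between animals. PCR duplicates cannot be told from separate molecules, so the intervals may be too narrow.

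Foxa2 (NM_010446, chromosome 2, 147868614 to 147872705, minus strand) reached 3.07 and 5.19 RPKM, on 25 and 47 reads of 2127 bases. Its mean of 4.13 ± 1.50 RPKM (SD, n = 2) was close to the middle of the table, above 53.0% of genes. This share and the median count all 22740 genes, of which 17426 were above 0. At rank 10691, Foxa2 had a lower place among the genes above 0. The median over all genes was 3.28 and 3.23 RPKM, so the gland regulator sat just below the median in uterus 1 and above it in uterus 2.

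Sox9 (NM_011448, chromosome 11, 112643524 to 112649071, plus strand) reached 1.26 and 1.87 RPKM. Its long transcript of 4146 bases gave 20 and 33 reads, more than Prss29 gave at a higher level. The mean was 1.56 ± 0.433 RPKM (SD, n = 2), and the values of Sox9 stayed below those of Foxa2 in both animals.

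The gland proteases were low. Prss29 (NM_053260, chromosome 17, 25455599 to 25459629, plus strand) reached 3.31 and 4.97 RPKM, on 15 and 25 reads, with a mean of 4.14 ± 1.17 RPKM (SD, n = 2). Prss28 (NM_053259, chromosome 17, 25445591 to 25448821, plus strand) reached 0.877 and 0.987 RPKM, with a mean of 0.932 ± 0.0782 RPKM. That rests on 4 and 5 reads, and 95% Poisson intervals run from 0.239 to 2.24 RPKM and from 0.321 to 2.30 RPKM. The small SD of Prss28 is therefore no sign of precision. Prss29 was above Prss28 in both animals, by 3.78 times in uterus 1 and 5.04 times in uterus 2. The Poisson interval of Prss29 overlapped that of Prss28 in uterus 1 (Prss29 from 1.85 to 5.46 RPKM). In uterus 2 the intervals were apart (Prss29 from 3.22 to 7.34 RPKM).

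**Figure D1:**
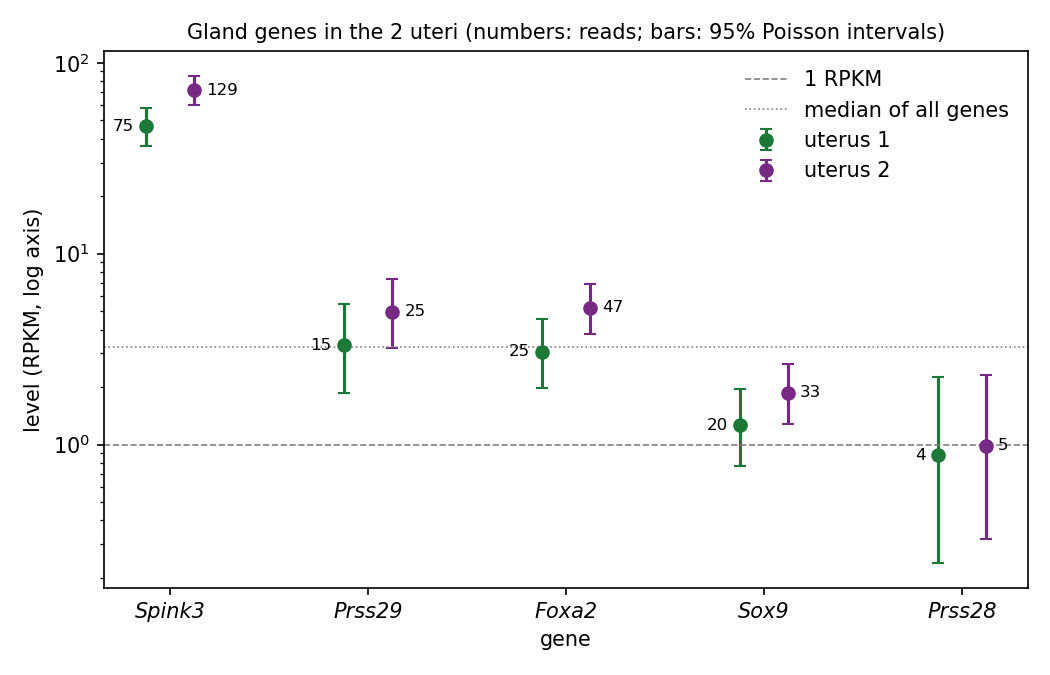
Level of each gland gene in RPKM (log axis) in uterus 1 and uterus 2, with 95% Poisson intervals of the recovered reads and the number of reads beside each point; the lines mark 1 RPKM and the median of all genes. Spink3 stands apart at 46.4 and 71.8 RPKM, Prss29 and Foxa2 overlap, and Prss28 lies below 1 RPKM in both uteri.

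By mean level the order was Spink3, Prss29, Foxa2, Sox9 and Prss28. Spink3 was 14.3 times above Prss29, and its Poisson intervals did not meet those of any other gland gene. Prss29 and Foxa2 did not differ beyond their spread: their ranges overlapped, the ratio of their means was 1.00, and Foxa2 was the higher of them in uterus 2. Foxa2 was above Sox9 by 2.44 times in uterus 1 and 2.78 times in uterus 2, and Sox9 above Prss28 by 1.44 and 1.89 times. The ranges of the 2 uteri did not overlap within either pair. Within each library the Poisson intervals of Foxa2 and Sox9 were also apart, from 1.98 to 4.53 RPKM against 0.769 to 1.94 in uterus 1, and from 3.81 to 6.90 against 1.29 to 2.63 in uterus 2. Those of Sox9 and Prss28 overlapped in both libraries. On 4 and 5 reads, the place of Prss28 below Sox9 is uncertain. With 2 values against 2, an exact rank test between neighbours could not pass 0.05, and no test between genes was run.

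In rank, 4 of the 5 gland genes lay below every gene of the epithelium list, whose means ran from 8.28 RPKM (Cldn4, a tight junction claudin) to 121 RPKM (Cldn3, another claudin). Spink3 lay among the higher epithelial genes, between Krt8 at 73.9 ± 6.46 RPKM and Krt19 at 49.5 ± 2.25 RPKM (SD, n = 2), which encode keratins of simple epithelia. Set against the median of the epithelium list in the same library, which was 26.4 and 29.2 RPKM, Spink3 was 1.75 and 2.46 times as high. Foxa2 was 0.116 and 0.178 of that median, Prss29 0.125 and 0.170, Sox9 0.0476 and 0.0641, and Prss28 0.0332 and 0.0338. Single genes of the list came closer: in uterus 2 Foxa2 and Cldn4 were level, both at 5.19 RPKM.

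**Figure D2:**
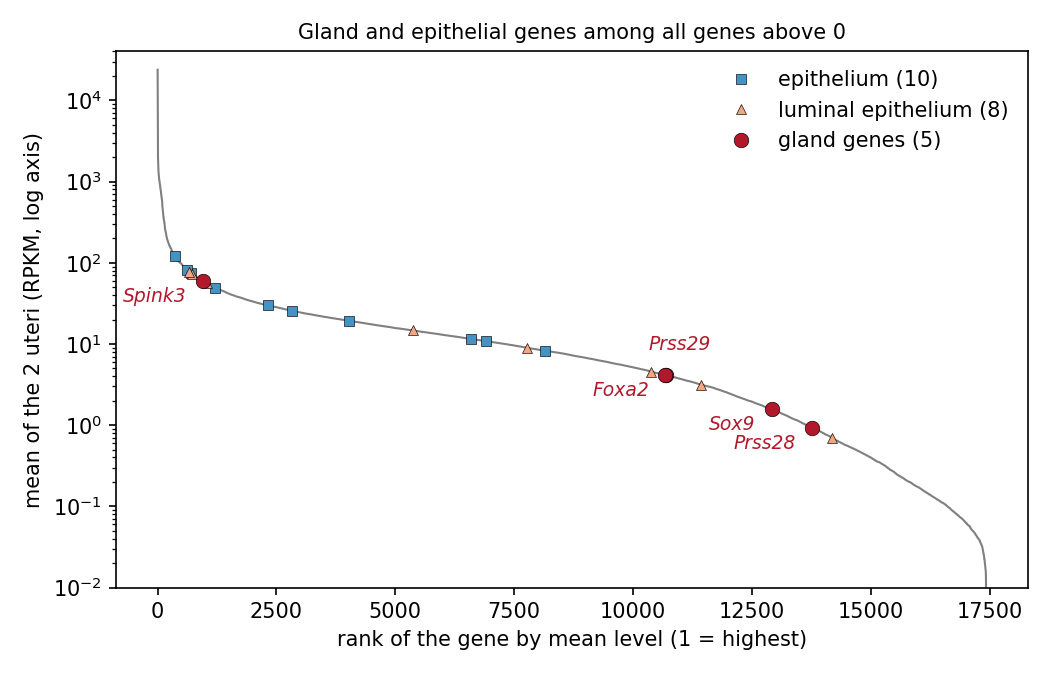
Mean level of every gene above 0 (grey line, RPKM on a log axis) against its rank, with the 5 gland genes, 10 epithelium genes and 8 luminal epithelium genes marked. Spink3 sits at rank 959 among the epithelial genes, and the other 4 gland genes lie at rank 10679 or lower in the order.

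All 5 gland genes were higher in uterus 2 than in uterus 1, and none was 2-fold apart. The log2 ratio of uterus 2 over uterus 1, after adding 0.1 RPKM to each value, was 0.74 for Foxa2, 0.63 for Spink3, 0.57 for Prss29, 0.54 for Sox9 and 0.15 for Prss28. Their median was 0.57, and 0.60 over the 4 whose mean reached 1 RPKM (without Prss28), beside 0.00067 over the 13647 genes whose mean reached 1 RPKM, and 50.1% of those were higher in uterus 2. Of the same genes, 2.6% were at least 2-fold apart in either direction. A log2 ratio as high as that of Foxa2 or higher was seen in 2.46% of them, as high as that of Spink3 in 3.42%, Prss29 in 4.26%, Sox9 in 4.81% and Prss28 in 26.0%.

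The difference between the libraries was tested for every gene by a two-sided exact binomial test on the recovered reads, with Benjamini-Hochberg adjustment over the 15105 genes with at least 6 reads in sum. It compares these 2 libraries, not conditions. It called 4.61% of the genes tested at an adjusted p under 0.05 (3.90% with the smallest possible reads for every gene), and 0 of the 5 gland genes. Unadjusted p-values were under 0.05 for 2 of the 5, as for 15.4% of the genes tested. Spink3 came closest: the fold of 1.55 had an exact 95% interval from 1.16 to 2.09, with an exact binomial p of 0.00251 and an adjusted p of 0.0533. For Foxa2 the fold was 1.69 (1.02 to 2.87), with an exact binomial p of 0.0336 and an adjusted p of 0.264. The intervals of the other 3 included 1: Prss29 had a fold of 1.50 (0.761 to 3.06), Sox9 1.49 (0.828 to 2.73) and Prss28 1.13 (0.242 to 5.68). Prss29 and Sox9 had 40 and 53 reads in sum, and whether a fold near 1.5 can be detected on such counts was not tested.

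**Figure D3:**
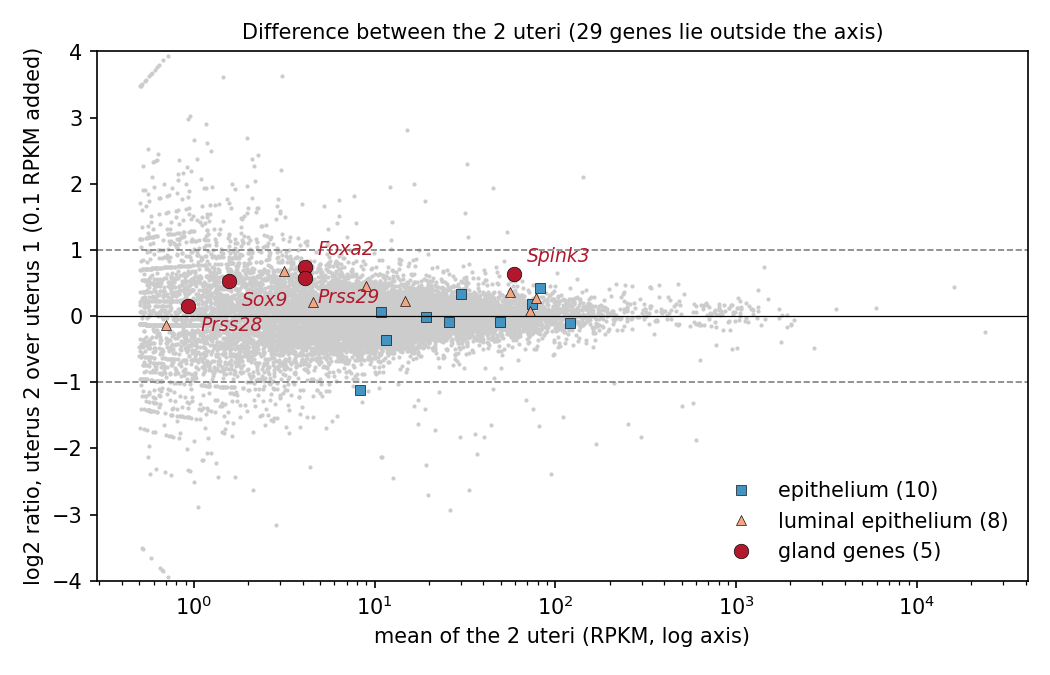
Log2 ratio of uterus 2 over uterus 1 (0.1 RPKM added) against mean level (RPKM, log axis) for genes whose mean reached 0.5 RPKM (grey; 29 of 14683 lie outside the axis), with the gland, epithelium and luminal epithelium genes marked; dashed lines mark 2-fold. The 5 gland genes lie above 0 and inside the 2-fold lines, while the epithelium genes lie on both sides of 0.

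Epithelial genes did not share 1 direction. Of the 10 epithelium genes, 4 were higher in uterus 2 and the other 6 in uterus 1, with a median log2 ratio of -0.05. The exact binomial test called 2 of the 10, in opposite directions: Krt18, a keratin, was higher in uterus 2 (70.4 and 94.3 RPKM, adjusted p = 0.00067), and Cldn4 was lower (11.4 and 5.19 RPKM, adjusted p = 0.0023). In the luminal epithelium list, all 7 genes that averaged 1 RPKM or more were higher in uterus 2, with a median log2 ratio of 0.27. Of its 8 genes the test called Ltf, which encodes lactotransferrin (48.9 and 62.9 RPKM, adjusted p = 0.00072), and Calb1, a calcium-binding protein (70.6 and 85.0 RPKM, adjusted p = 0.0042). The luminal list thus leaned toward the same animal as the gland genes, and the part of the amount of epithelium in each sample was not tested. Of 8 stroma genes, 6 were higher in uterus 2, with a median log2 ratio of 0.08, and the exact binomial test called 4 in both directions: Dcn (456 and 578 RPKM) and Vim (447 and 522 RPKM) were higher in uterus 2, and the collagens Col1a1 (1184 and 851 RPKM) and Col1a2 (988 and 857 RPKM) lower. Of 6 smooth muscle genes, 4 were higher in uterus 2, and the test called Myh11 higher (314 and 350 RPKM) and Acta2 lower (653 and 592 RPKM) there. The part of stroma or muscle in the gland values was not tested. Of the 3 oviduct markers, Ovgp1, which encodes an oviduct glycoprotein, measured 5.78 and 9.31 RPKM (exact binomial test, adjusted p = 0.084), Pax8 10.6 and 10.7 RPKM, and Foxj1 of ciliated cells was listed at 0. The list's summed level was 16.4 and 19.998 RPKM, and its part in the gland values was not tested. Relative to Epcam, the epithelial adhesion molecule, Spink3 was 1.22 times higher in uterus 2 and Foxa2 1.34 times. Relative to Cdh1, E-cadherin, the values were 1.65 and 1.80 times. Relative to Krt18 the difference was smallest, at 1.16 times for Spink3, 1.26 for Foxa2, 1.12 for Prss29 and 1.11 for Sox9. Prss28 relative to Epcam, Krt8 or Krt18 was lower in uterus 2, at 0.889, 0.995 and 0.841 of its value in uterus 1.

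Other genes enriched in glands were mixed. Of a list of 10, 9 were in the table and 4 were at 1 RPKM or more in both uteri. Lif, the cytokine that glands release to start implantation, was at 3.16 and 3.90 RPKM on 49 and 67 reads, a level next to that of Foxa2. Ttr, the thyroxine carrier transthyretin, lay at 4.27 and 5.39 RPKM. Sox17, a transcription factor of gland and luminal epithelium that endothelium also expresses, was much higher, at 48.5 and 51.6 RPKM. Aldh1a1, a retinaldehyde dehydrogenase, was higher in uterus 1, at 6.03 and 4.16 RPKM. Klk1 rested on 1 and 3 reads and Wnt7b on 11 and 5. The secreted Dcpp1, Dcpp2 and Dcpp3 were listed at 0 in both uteri. The exact binomial test called none of the 5 tested genes of this list, with adjusted p-values of 0.458 (Aldh1a1) and above.

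Genes that act in gland formation mostly had slightly higher values in uterus 1. Of 12, 11 were at 1 RPKM or more in both uteri; 9 of those 11 were higher in uterus 1, with a median log2 ratio of -0.06, and the exact binomial test called none of the 12. Wnt5a, a stromal WNT ligand, lay at 52.4 ± 3.19 RPKM, and Ctnnb1, the WNT effector beta-catenin, at 220 ± 2.54 RPKM (SD, n = 2). The epithelial ligand Wnt7a lay at 1.63 ± 0.0105 RPKM. Lgr5, a WNT-potentiating receptor, lay under 1 RPKM, at 0.443 and 0.549 RPKM on 8 and 11 reads. On the receiving side of gland LIF, all 6 genes were detected and the test called none of them. The shared receptor subunit Il6st lay at 179 ± 0.877 RPKM and its transducer Stat3 at 65.4 ± 1.37 RPKM, whereas the specific subunit Lifr lay at 8.02 ± 0.136 RPKM (SD, n = 2).

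Both transcription factors had the highest level of their close relatives. Foxa1 was listed at 0 in both uteri, and Foxa3 rested on 1 read in uterus 1 and none in uterus 2, against 25 and 47 reads for Foxa2. Foxa1 and Foxa3 are known from endoderm organs such as the liver. In the liver list of 5 genes, which holds Foxa3 and Ttr, Alb rested on 0 and 1 reads and Apoa1 was listed at 0. Its member Serpina1e had 118 reads (22.4 RPKM) in uterus 1 and was listed at 0 in uterus 2 (exact binomial test, adjusted p = 5.8e-36). Serpina1e is known as one of several near-identical copies, and how far its reads can be told from theirs was not tested. The part of liver transcripts in the gland values was not tested. Sox8 lay at 0.783 and 0.392 RPKM on 9 and 5 reads, and Sox10, a neural crest and Schwann cell factor, at 0.385 and 0.520 RPKM on 4 and 6 reads. Sox9 at 1.26 and 1.87 RPKM was above both in each animal. The coding sequences of Foxa2 and Foxa1 were identical at 76.2% of aligned bases, and those of Sox9 and Sox10 at 73.2%. No stretch of 50 bases in the transcripts of the 5 gland genes recurred in a protein-coding transcript of another gene, and non-coding transcripts were not compared. The length of the reads is not given in the sources used here.

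Among 12 Spink genes by symbol, Spink3 was far above the rest. Of the other 11, Spink8 alone reached 1 RPKM in both, at 2.30 and 1.04 RPKM on 6 and 3 reads, and 6 were listed at 0 in both. Since Spink3 is also a pancreatic gene, acinar markers were read beside it. Of 8, 5 were listed at 0 in both uteri, among them the trypsin gene Prss2 and the lipase gene Pnlip, and 1, Cela1, reached 1 RPKM in both, at 4.95 and 2.55 RPKM. The summed acinar level was 5.82 and 3.34 RPKM, most of it from Cela1 (21 and 12 reads, exact binomial test, adjusted p = 0.41), whereas Cpb1 lay at 0.698 and 0.786 RPKM. The part of acinar RNA in the Spink3 values was not tested. Of the 3 cartilage genes read beside Sox9, none reached 1 RPKM: Comp, the highest, lay at 0.645 and 0.581 RPKM on 6 reads in each uterus, Col2a1 rested on 0 and 1 reads and Acan on 1 and 3. Their part in the Sox9 value was not tested. Other inhibitors of trypsin-like enzymes were well expressed: all 5 reached 1 RPKM in both uteri, led by Wfdc2 at 162 ± 16.9 RPKM (SD, n = 2). Of these Slpi, a secreted leukocyte protease inhibitor, measured 6.55 and 26.6 RPKM and was the only one of the 5 that the exact binomial test called (adjusted p = 5.3e-09).

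Prss28 and Prss29 are neighbours on chromosome 17, on the same strand and 6.78 kb apart. Upstream lies Prss34, a protease of basophils, and downstream the mast cell tryptases Tpsab1 and Tpsb2. Prss34 was listed at 0 in both uteri. Tpsab1 was at 1.31 and 1.58 RPKM on 6 and 8 reads, and Tpsb2 at 3.36 and 5.61 RPKM on 14 and 26 reads. The level of Prss29, at 3.31 and 4.97 RPKM, was thus next to that of a mast cell tryptase. All 6 mast cell markers were detected, with medians of 5.15 and 6.70 RPKM, and 4 of the 6 were higher in uterus 2. Among the 11 other tryptase-type genes on this chromosome, Tpsab1 and Tpsb2 were the 2 that reached 1 RPKM in both uteri. Of the remaining 9, 3 were listed at 0 in both uteri and 6 had 1 to 6 reads in sum. The coding sequences of Prss28 and Prss29 were identical at 64.7% of aligned bases, those of Prss29 and Tpsb2 at 66.7%, and those of Prss28 and Tpsb2 at 63.3%.

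**Figure D4:**
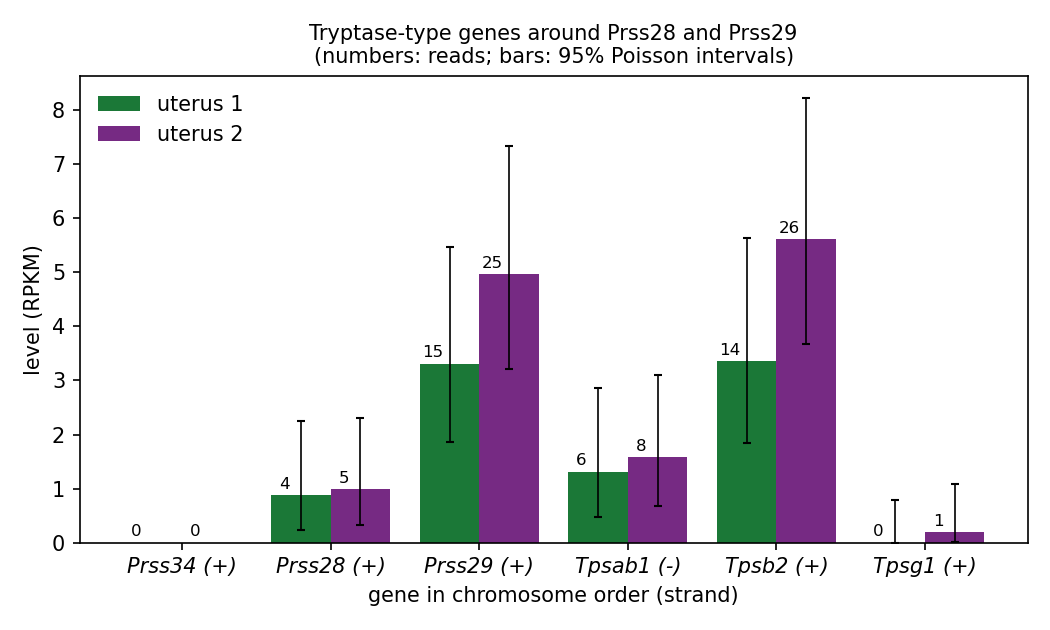
Level (RPKM) of the 6 tryptase-type genes from Prss34 to Tpsg1 in chromosome order, for uterus 1 and uterus 2, with the number of reads and 95% Poisson intervals. Prss29 and Tpsb2 are the highest in both uteri, Prss28 and Tpsab1 rest on 4 to 8 reads, and Prss34 is listed at 0.

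The windows upstream of Prss28 and Prss29 are shown because these adjacent genes, both known from glands, differed in level by 3.78 and 5.04 times. The difference is uncertain, as Prss28 rests on 4 and 5 reads and the Poisson intervals of the genes overlapped in uterus 1. They are the 250 bases before each start in the RefSeq promoter table (build GRCm38.p6), each of which matched NCBIM37 once and ended at the deposited start, at chr17:25445341-25445590 and chr17:25455349-25455598 on the plus strand. Capitals mark the 2 longest runs that both windows share.
Prss28: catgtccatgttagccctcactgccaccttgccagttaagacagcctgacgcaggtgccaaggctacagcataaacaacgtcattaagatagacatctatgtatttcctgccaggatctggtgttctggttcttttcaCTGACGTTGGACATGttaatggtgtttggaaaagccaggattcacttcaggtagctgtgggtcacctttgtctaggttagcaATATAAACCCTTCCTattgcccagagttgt
Prss29: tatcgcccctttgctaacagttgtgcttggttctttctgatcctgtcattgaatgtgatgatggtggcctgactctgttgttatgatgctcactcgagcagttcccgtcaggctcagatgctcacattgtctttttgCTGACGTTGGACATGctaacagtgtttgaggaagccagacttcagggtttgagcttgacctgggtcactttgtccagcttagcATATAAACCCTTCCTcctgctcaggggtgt

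Both runs are 15 bases long. The run nearer the start spans bases -30 to -16 in both windows, counted back from -1 at the base before the start. It holds TATAAA, the core of a TATA box, with its first base at -29 in both genes. Of 32851 windows in the table, 1.67% hold TATAAA on the gene's strand with its first base between -33 and -25. The other run spans -112 to -98 in Prss28 and -113 to -99 in Prss29. In a global alignment 62.5% of columns were identical over all 250 bases, and the likeness lay toward the start: 96 of 128 columns were identical in the nearer part of the window and 66 of 132 in the farther part, cut at equal length. AGAACA, the half-site of the progesterone receptor element, was found in the Prss28 window, on the opposite strand at -129 to -124, and not in that of Prss29; 16.1% of all windows hold it on either strand. The forkhead cores TGTTTAC and TATTTAC, the SOX core AACAAT and the full palindromic oestrogen response element were searched on both strands and their letters were in neither window. They are held by 3.17%, 2.73%, 9.42% and 0.0639% of windows. Foxa2 has 3 start sites in the table, 1 of them at the deposited start, and the window of that start held none of these motifs or TATAAA. Spink3 and Sox9 were not matched in the table under these symbols, which for Spink3 is the older one.

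With 2 libraries, the genes most like each gland gene could be named only by level, as the shortest distance in log2 RPKM over the 2 uteri. Nearest to Foxa2 was Fam129c at 3.15 and 5.11 RPKM, and nearest to Spink3 was Ctss, the protease cathepsin S of antigen-presenting cells, at 49.0 and 70.6 RPKM. Prss29 was nearest to Epsti1 (3.37 and 5.06 RPKM), Sox9 to Enho (1.25 and 1.88 RPKM) and Prss28 to Fam83g (0.872 and 0.982 RPKM). Many genes share such levels, and likeness over 2 libraries describes no more than that.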

How the data were processed

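Uterine RNA of 2 pregnant mice (day 4) was sequenced. Per the labels' protocols, Trizol was used for extraction and 1 microgram went into TruSeq libraries. The authors deposited RPKM values per gene, per the series' design text. The submitters' processing notes name mm9, TopHat and edgeR; annotation, counting and use of strand are not given in the sources used here. The values of all 22740 genes are identical in both tables.

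Among single-exon genes with a matching GENCODE M1 transcript, each RPKM times length was a whole multiple of 1 step (190 of 190 values in uterus 1, 196 of 196 in uterus 2, within 1e-06 of a whole read). This gave scaling totals of 3834174.42 and 4256101.01 reads. For every gene above 0, the smallest length giving whole reads in both libraries was taken, or a multiple of it up to 20 where that came within 5% of an annotated transcript. The 5 gland genes needed no multiple. The recovery and the exact binomial test (scipy 1.17.1, at least 6 reads in sum) were tested on simulated data. Detection was set at 1 RPKM in both uteri, and log2 ratios used a pseudocount of 0.1 RPKM. Over all genes they were taken where the mean reached 1 RPKM, and for the members without that filter, which Prss28 does not pass.

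Members, lists and motifs were chosen with earlier results of these data known. Genes were named by rule: the 5 members, genes of the lists, family members, and for each member the 2 protein-coding genes nearest in level, of which 1 is given. Nothing in the labels beyond the animals separates the libraries, and p-values measure only the difference between these 2.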

Additional observations from a re-analysis of the deposited data

How the results depend on the processing

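Rescaling RPKM to 1 common sum per library (the TPM scale) multiplies every level by construction, to 139.7 for Spink3, 9.80 for Prss29, 9.76 for Foxa2, 3.70 for Sox9 and 2.20 for Prss28, so that all 5 genes pass a threshold of 1 on that scale. In place of 4 gland genes at 1 RPKM, 5 were detected at 0.5 RPKM (Prss28 gained), 3 at 2 RPKM (Sox9 lost) and 1, Spink3, at 10 RPKM. Uterus 2 alone puts Foxa2 above Prss29, so 3 of the 5 genes hold their place in the order, against 5 with uterus 1 alone or on the TPM scale. No log2 ratio of a gland gene changed sign under the pseudocounts, scales and centrings run. The pseudocounts and centrings could not have changed one, so they do not test the direction. A pseudocount added to both values leaves the larger value larger. The median log2 ratio of all genes was 0.00067, below every gland ratio. That of the epithelium list, a centring chosen after seeing the data, was -0.05, so it raised every ratio. Set against single epithelial genes, Prss28 did change sign, with log2 ratios of -0.17 relative to Epcam, -0.0072 relative to Krt8 and -0.25 relative to Krt18. The count of gland genes called by the exact binomial test was 0 under its 3 alternatives, where the adjusted p of Spink3 ran from 0.0531 to 0.0615. Taking the smallest possible reads or no minimum on reads left the unadjusted p of every gland gene unchanged. Scaling by the summed recovered reads hardly moved it. These alternatives thus mainly vary the adjustment and do not test the gland genes anew. The keratins Krt8 and Krt18 lie above the epithelium median, so ratios to them were lower for all 5 gland genes by construction, at 0.792 and 0.710 for Spink3. At 0.5 RPKM, 2 acinar genes in place of 1 and 1 cartilage gene in place of 0 were detected. Leaving out a library leaves no ratio between libraries. No paired analysis was possible because the labels define a single group. Depth limits Prss28 most, with 9 reads in sum.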
